A study of Rattus norvegicus with 60 samples.

Results

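Liver messenger RNA of male F344/N rats given 6 mg/kg per day of N,N-dimethyl-p-toluidine (DMPT) was compared with that of rats given the corn oil vehicle alone. The comparison used 10 of the 60 arrays of the series, the 5 titled as DMPT at 6 mg/kg and the 5 titled as the DMPT vehicle group, and all 31042 non-control probe sets. In both groups the rats were 5 to 6 weeks old at the start, were housed 2 per cage and received 2.5 ml/kg of oil by gavage on 5 consecutive days, and RNA came from the left lateral liver lobe. The series also holds DMPT at 1, 20, 60 and 120 mg/kg and the same 6 dose groups, vehicle included, for p-toluidine. The labels do not tie an array to an animal or a cage. The p-values therefore cover the variation among arrays within groups, which may in part be technical. That spread was estimated over all 30 DMPT arrays in 6 groups, not over these 10 alone. All values are log2 expression per probe set, and the number of arrays limits their precision.

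DMPT is an aromatic amine that starts the hardening of methacrylate bone cements and dental resins, and it caused liver tumors in rats in long-term gavage studies. Aromatic amines are oxidized in the liver, partly by cytochrome P450 enzymes, to reactive metabolites that can bind protein and DNA. Hepatocytes answer such metabolites by conjugating them, for example to glutathione through glutathione S-transferases, and by exporting the conjugates through membrane pumps of the ABCC family. Several of these genes are known targets of NRF2, a transcription factor activated by electrophiles and oxidants.

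At 6 mg/kg the changes were few and mostly small. With limma, 52 of 31042 probe sets (0.168%) had an adjusted p no greater than 0.05 and are said here to have passed. Of these, 17 were higher (0.0548%) and 35 lower (0.113%) than vehicle, and 2717 of all probe sets (8.75%) had an unadjusted p below 0.05. These 52 differed from vehicle by 0.29 to 1.61 on the log2 scale with a median of 0.47, and 7 of them differed at least 2-fold. In 45 of the 52 the 5 dosed arrays lay wholly outside the range of the 5 vehicle arrays, against 629 of all 31042 probe sets (2.03%). The 52 were chosen on these same arrays, so this separation follows in large part from the choice and is a description. The 40 passing probe sets that carry exactly 1 gene symbol stand for 37 genes, 12 higher and 25 lower. The genes that rose were led by the glutathione S-transferase gene Gstt3, the efflux pump gene Abcc3 and the aldo-keto reductase gene Akr7a3, and those that fell by the lipogenic regulator gene Thrsp, the cell cycle genes Cdkn1a, Mybl1 and Ccnd1, and Tnfrsf9, a receptor gene of the tumor necrosis factor receptor family.

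The number of calls moved with single arrays. It was 18 without vehicle replicate 4, 23 without dosed replicate 5, 30 without vehicle replicate 3, 31 without vehicle replicate 5, 31 without dosed replicate 4 and 33 without vehicle replicate 1. With only the 2 groups in the fit, so that the spread was not shared with the other doses, 15 probe sets passed, 10 of them among the 52. A further quantile normalization gave 43 higher and 48 lower probe sets in place of 17 and 35. All 37 genes kept their direction under every alternative, but each alternative reuses most of the arrays that chose them. Genes that did not pass, such as Nqo1 (adjusted p = 0.913, limma), kept theirs too. In each of the 10 fits that left out 1 array, 10 genes passed: Gstt3, Gstm1, Abcc3, Dap, Thrsp, Tnfrsf9, Ccnd1, Tmem82, Urad and Urah. Of these, Gstt3, Thrsp and Tnfrsf9 also passed with only the 2 groups in the fit (adjusted p = 0.0251 each, limma). The others did not, with adjusted p values from 0.0532 (Urad) to 0.134 (Urah). In that fit 6 of the 37 genes passed, which included Cdkn1a, Phlda3 and Mybl1 from outside these 10.

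No cell type marker differed between dosed and vehicle livers by the test. The 12 measured hepatocyte markers had mean levels from 9.79 to 13.82, near the top of the scale, as the labelled tissue would have, and albumin (Alb) differed by -0.01 ± 0.05 (SE). Of the measured members of 10 marker lists, among them hepatocytes, cholangiocytes, macrophages, endothelium, stellate cells and blood cells, none passed, and the list medians ran from -0.05 for hepatocytes to 0.08 for Kupffer cells and macrophages. Lymphocyte and neutrophil markers were dim in vehicle, at 1.685 to 4.66 and 1.441 to 3.404, so a change in them could have been missed. The beta-actin gauge of RNA integrity, the 3′ minus the 5′ control probe set, was 1.40 ± 0.13 (SD, n = 5) in dosed and 1.48 ± 0.15 (SD, n = 5) in vehicle arrays (two-sided exact permutation p = 0.484, adjusted over both gauges 0.833). Dosed replicate 3 had the narrowest spread of the 10 arrays, with an interquartile range of 3.12 against a highest of 3.34. Without it and the 4 other DMPT arrays below 3.2, 56 probe sets passed, and 29 of the 37 genes remained among them.

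**Figure D1:**
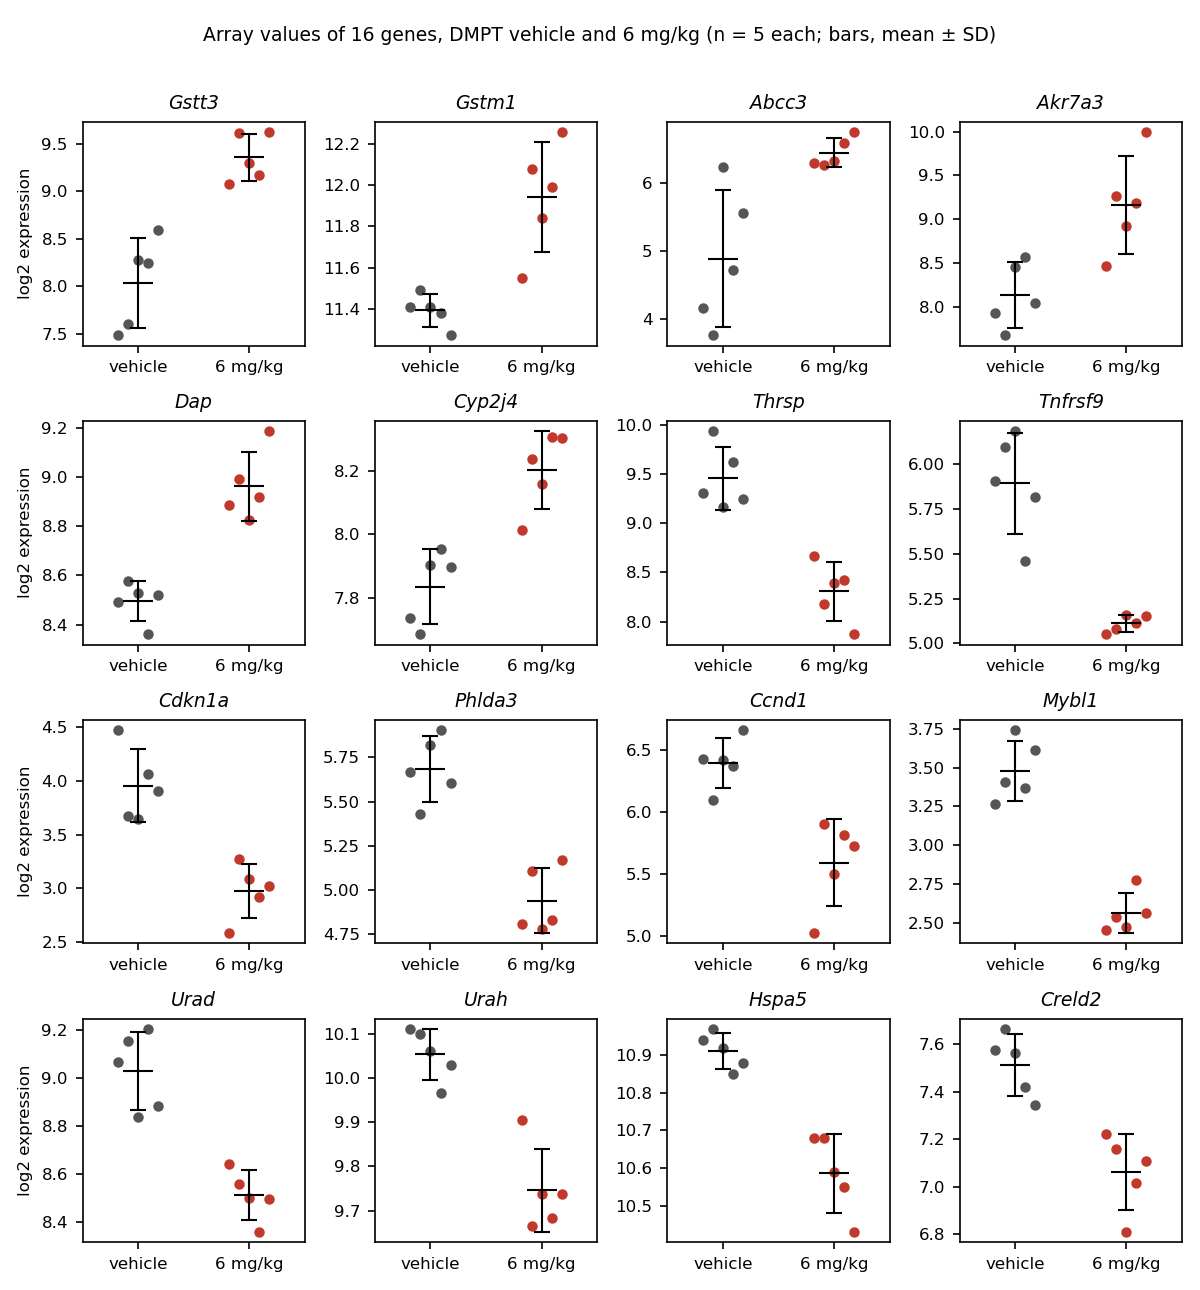
Each point is the log2 expression of 1 array and the bars are the mean ± SD of 5 arrays, for 16 of the 37 genes, with vehicle in grey and 6 mg/kg of DMPT in red. In 15 of the 16 genes shown the groups do not overlap, as in 2.03% of all probe sets. The exception is Akr7a3, whose lowest dosed array (8.47) lies below the highest vehicle array (8.58). The genes were chosen on these same arrays, so the separation follows in large part from the choice.

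Among the enzymes of conjugation, Gstt3, a theta class glutathione S-transferase, had the firmest rise. Its vehicle arrays read 7.48, 7.61, 8.27, 8.25 and 8.59 and its dosed arrays 9.08, 9.61, 9.29, 9.17 and 9.62. The lowest dosed array was above the highest vehicle array. The difference was 1.32 ± 0.21 (SE, n = 5 arrays a group), or 2.49-fold (adjusted p = 0.00182, limma). Gstm1, a mu class enzyme and one of the most abundant transferases of the liver, read between 11.27 and 11.49 in vehicle and 11.55, 12.08, 11.84, 11.99 and 12.26 in dosed arrays. It rose by 0.55 ± 0.08 (SE, adjusted p = 0.00182), again without overlap, on a level that was already near the top of the scale.

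Abcc3 encodes an efflux pump of the basolateral membrane that moves glucuronides and glutathione conjugates toward the blood. Its 5 dosed arrays were tightly grouped at 6.30, 6.27, 6.33, 6.59 and 6.76, while the vehicle arrays were spread from 3.76 to 6.24 and did not overlap with them. The vehicle SD was 1.01 and the dosed SD 0.21. The rise of 1.56 ± 0.28 (SE, 2.96-fold, adjusted p = 0.00917) thus started from unequal vehicle levels, and in the fit of only these 2 groups its adjusted p was 0.133. Of the 20 measured organic anion and bile acid transporters it was the only one that passed, where 0.0774% of all genes rose. The list median was 0.02.

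Akr7a3, an aldo-keto reductase known for reducing the dialdehyde of aflatoxin, rose by 1.03 ± 0.22 (SE, adjusted p = 0.0413). Its vehicle arrays read 7.94, 7.68, 8.46, 8.58 and 8.06 and its dosed arrays 8.47, 9.26, 8.93, 9.19 and 10.00. Dosed replicate 5 was the highest and dosed replicate 1 lay within the vehicle range. The call ended in 9 of the 10 fits without 1 array, and without dosed replicate 5 the adjusted p was 0.188. Cyp2j4, a cytochrome P450 of the arachidonate epoxygenase group, rose by 0.37 ± 0.08 (SE, adjusted p = 0.0287), from 7.84 ± 0.12 to 8.20 ± 0.12 (SD, n = 5).

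As a group, the detoxification lists moved only in part. Of 27 measured NRF2 targets, 3 rose (Abcc3, Akr7a3 and Gstm1) and none fell, and the list median was 0.10 against 0.00034 over all 14217 genes. Of 21 glutathione S-transferases, 2 rose (Gstt3 and Gstm1), none fell, and the median was 0.19. By its brightest probe set, which represents a gene in all lists, 30 of the 14217 genes passed (0.211%), 0.0774% upward and 0.134% downward. Established NRF2 targets stood on both sides of 0: Gclm, the modifier subunit of glutamate-cysteine ligase, differed by 0.37 (adjusted p = 0.066), while its catalytic subunit Gclc differed by -0.24 (adjusted p = 0.644) and the quinone reductase Nqo1 by 0.12 (adjusted p = 0.913). None of 16 targets of the drug receptors CAR and PXR and none of 8 targets of the aryl hydrocarbon receptor (AhR) passed. Aldh1a1, a retinaldehyde dehydrogenase, differed by 0.57 (adjusted p = 0.0603), Ugt2b1, a glucuronosyltransferase, by 0.43 (adjusted p = 0.225), and the AhR target Cyp1a1 by 0.10 (adjusted p = 0.975). Cyp3a9, a P450 of the CYP3A family, differed by -0.83 (adjusted p = 0.283) and Cyp1b1 by -0.11 (adjusted p = 0.832).

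Gstp1, the pi class transferase that adult rat hepatocytes hardly express and that marks altered foci, had dosed arrays that were far apart (SD 1.21, n = 5). The vehicle arrays read 5.65, 6.37, 5.72, 6.53 and 6.30. The dosed arrays read 6.09, 8.18, 6.61, 8.41 and 8.86, so that replicates 2, 4 and 5 were well above every vehicle array while replicate 1 lay among them. The difference of 1.52 ± 0.34 (SE) did not pass (adjusted p = 0.0597), and it passed in 7 of the 19 settings tried. Among 17 measured markers of altered hepatic foci, 2 rose (Abcc3 and Akr7a3), where 0.0774% of all genes did, and the median was 0.14. H19, an imprinted non-coding RNA of fetal liver on that list, differed by 2.03 ± 0.53 (SE, adjusted p = 0.124). Its dosed arrays read 7.67 to 9.21 and its vehicle arrays 5.10 to 8.63, and vehicle replicate 3 alone reached into the dosed range. Gsta3, an alpha class transferase, differed by 1.00 ± 0.39 (SE, adjusted p = 0.409), with vehicle arrays as far apart as 4.97 and 7.83.

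Another 7 genes rose, by 0.31 to 0.71. Dap, a death-associated protein that restrains autophagy, had 5 dosed arrays from 8.82 to 9.19 and 5 vehicle arrays from 8.36 to 8.58, a rise of 0.47 ± 0.07 (SE, adjusted p = 0.00182). Adgrg2, an adhesion G protein-coupled receptor, rose by 0.71 ± 0.15 (SE, adjusted p = 0.0287) from a low level, and its highest vehicle array, 4.93, was close to its lowest dosed array, 4.99. Mpv17, a protein of the inner mitochondrial membrane, and Spns1, a lysosomal transporter, rose by 0.36 and 0.38 (adjusted p = 0.0376 and 0.0159). The membrane protein gene Tmem98 rose by 0.31 (adjusted p = 0.0413). Tango2 and the zinc finger gene Zfp523 rose by 0.40 and 0.34 (adjusted p = 0.0212 and 0.0131), but a dimmer probe set of Tango2 and a brighter one of Zfp523 differed by 0.20 (adjusted p = 0.535) and 0.14 (adjusted p = 0.644).

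**Figure D2:**
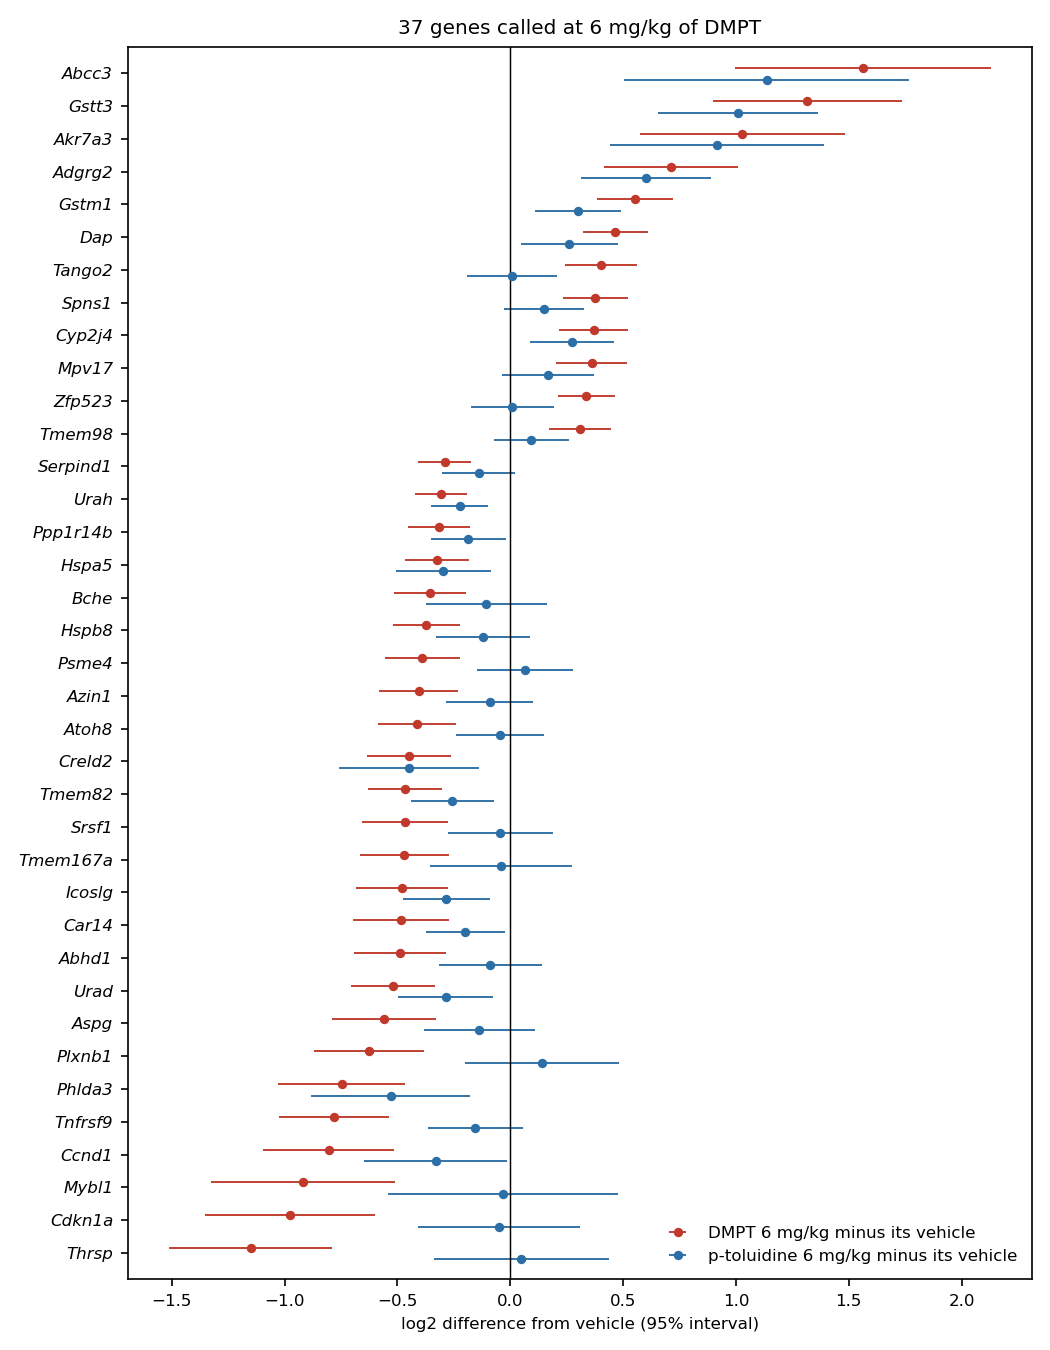
Points are log2 differences from the chemical's own vehicle group at 6 mg/kg with 95% intervals from the limma fit, for the 37 genes called with DMPT (red) and for p-toluidine (blue). The red values chose the genes; the blue values come from other arrays, and they have the same sign as the red ones in 34 of the 37 genes.

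Thrsp (Spot 14), a thyroid hormone-responsive nuclear protein that promotes fatty acid synthesis in the liver, had the largest fall among the named genes that passed. On its brightest probe set the vehicle arrays read 9.31, 9.94, 9.17, 9.62 and 9.25 and the dosed arrays 8.67, 8.18, 8.39, 8.42 and 7.87. All dosed arrays were below all vehicle arrays. Its 3 probe sets fell by 1.15, 1.15 and 1.11 on the log2 scale (SE 0.18 each, adjusted p = 0.00182, 0.00182 and 0.00221), so 3 separate sets of probes gave nearly the same fall. Scd, the stearoyl-CoA desaturase that makes monounsaturated fatty acids, had a greater difference of -2.46 ± 0.56 (SE) that did not pass (adjusted p = 0.0597). Its vehicle arrays ranged from 6.30 to 10.63 and its dosed arrays from 4.45 to 6.26, a large vehicle spread with no overlap.

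Of the 24 measured genes of lipogenesis, Thrsp fell (0.134% of all genes did) and none rose, 19 were below 0, and the median was -0.24. Fatty acid synthase (Fasn) differed by -0.51 (adjusted p = 0.213), the elongase Elovl6 by -0.74 (adjusted p = 0.223), ATP citrate lyase (Acly) by -0.52 (adjusted p = 0.334) and Insig1, a regulator of sterol sensing, by -0.81 (adjusted p = 0.338). The mean level over the 24 genes was 7.77, 7.55, 7.68, 7.61 and 7.39 in the dosed arrays and 7.95, 8.27, 7.92, 7.81 and 7.88 in the vehicle arrays, so the groups did not overlap. That mean includes Thrsp, which was called on these same arrays. From vehicle through 1, 6, 20, 60 and 120 mg/kg of DMPT the group means were 7.97, 7.73, 7.60, 7.79, 7.89 and 7.82, with SDs of 0.18, 0.16, 0.14, 0.11, 0.07 and 0.10 (n = 5 each). None of 16 genes of cholesterol synthesis and uptake passed. Dhcr7, Sqle and Nsdhl, enzymes of that path, differed by -0.37, -0.25 and -0.22 (adjusted p = 0.409, 0.868 and 0.34).

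Cdkn1a (p21), an inhibitor of cyclin-dependent kinases and a target of the tumor suppressor p53, fell on both of its probe sets. On the brighter one the vehicle arrays read 6.65, 6.50, 6.32, 6.08 and 6.13 and the dosed arrays 5.43, 5.66, 5.69, 5.50 and 5.59. The groups were separate, with falls of 0.76 ± 0.15 (SE, adjusted p = 0.026) there and 0.98 ± 0.19 (SE, adjusted p = 0.0159) on the dimmer one. Phlda3, a p53 target that restrains AKT signaling, fell by 0.75 ± 0.14 (SE, adjusted p = 0.0131), from 5.69 ± 0.19 to 4.94 ± 0.18 (SD, n = 5). Ccng1, cyclin G1, differed by -0.41 (adjusted p = 0.147), also without overlap of the arrays. Of 20 measured p53 targets, 2 fell (0.134% of all genes did) and none rose, and the median of the list was -0.09. Mdm2, which degrades p53, differed by -0.07 (adjusted p = 0.903), and the death receptor Fas by 0.15 (adjusted p = 0.785).

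Ccnd1 (cyclin D1), which drives hepatocytes from G1 into S phase, was measured by 3 probe sets. The one that passed read 6.43, 6.10, 6.42, 6.37 and 6.66 in vehicle and 5.02, 5.90, 5.50, 5.81 and 5.72 in dosed arrays, a fall of 0.80 ± 0.14 (SE, adjusted p = 0.00892). The brightest probe set of the gene differed by -0.86 (adjusted p = 0.0508) and the last by -0.64 (adjusted p = 0.153). Mybl1 (A-Myb), a transcription factor of the cell cycle program, fell by 0.92 ± 0.20 (SE, adjusted p = 0.0426). Its arrays were all dim, from 3.27 to 3.74 in vehicle and from 2.46 to 2.78 at 6 mg/kg, and the call ended in each of the 10 fits without 1 array.

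Of 37 measured genes of cell division and DNA replication, 36 were below 0 and the median was -0.57, but Mybl1 was the only one that passed by its representative probe set. By such probe sets 0.134% of all genes fell. Ccna2 (cyclin A2) differed by -0.97 ± 0.37 (SE, adjusted p = 0.381), Cdk1, the mitotic kinase, by -0.85 (adjusted p = 0.328), the proliferation marker Mki67 by -0.78 (adjusted p = 0.326) and topoisomerase Top2a by -0.62 (adjusted p = 0.213). The mean level over the 37 genes was 4.46, 4.98, 5.14, 4.90 and 5.09 in the vehicle arrays and 4.04, 4.28, 4.35, 4.68 and 4.75 in the dosed arrays. Vehicle replicate 1 lay within the dosed range, and the other vehicle arrays were above it. The same vehicle replicate 1 was also low in the mean level of the 12 Kupffer cell and macrophage markers, at 6.73 against 7.18 to 7.24 in the other vehicle arrays and 7.11 to 7.47 in dosed arrays. In the 11 markers of sinusoidal endothelium it was at 5.65 against 6.09 to 6.25 in the other vehicle arrays and 5.94 to 6.22 in dosed arrays. From vehicle through 1, 6, 20, 60 and 120 mg/kg of DMPT the group means were 4.91, 4.59, 4.42, 4.44, 5.04 and 5.39, with SDs of 0.27, 0.26, 0.29, 0.22, 0.45 and 0.17 (n = 5 each). The levels at 6 and 20 mg/kg were the lowest and differed by less than their spread, and every array at 120 mg/kg was above every vehicle array. For p-toluidine at 6 mg/kg, on its own scale, the mean was 4.02 ± 0.27 against 3.93 ± 0.34 in its vehicle (SD, n = 5).

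**Figure D3:**
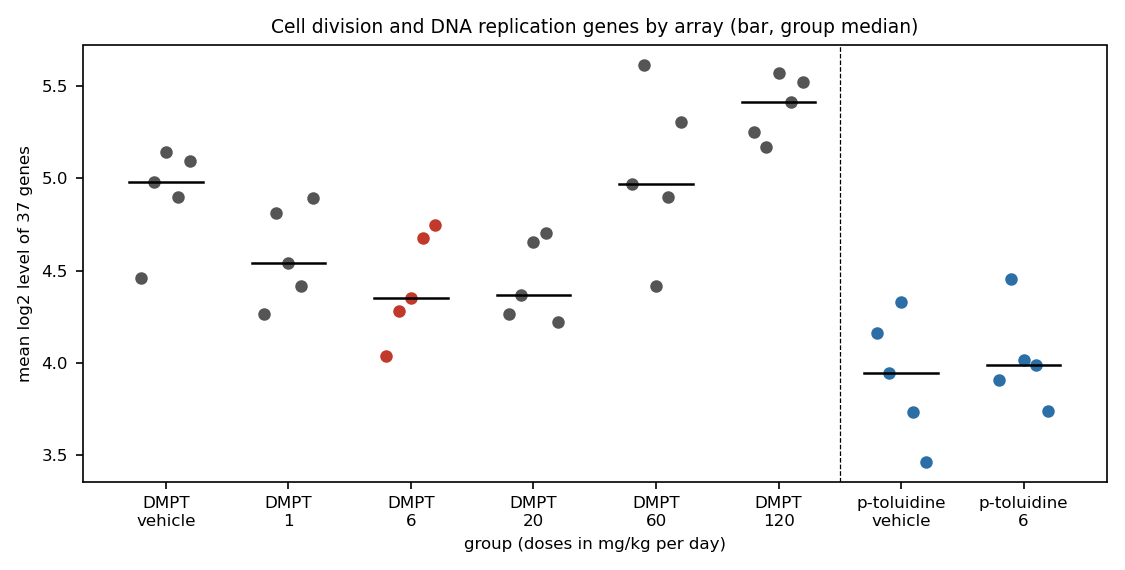
Each point is the mean log2 level of 37 cell division and DNA replication genes on 1 array and the bar is the group median; DMPT groups are left and p-toluidine groups right of the dashed line, and levels are not comparable across that line. The 5 arrays at 6 mg/kg of DMPT (red) run from 4.04 to 4.75, and 4 of the 5 vehicle arrays lie above them.

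Tnfrsf9 (CD137), a co-stimulatory receptor of activated T cells and other leukocytes, fell by 0.78 ± 0.12 (SE, adjusted p = 0.00182). Its vehicle arrays read 5.91, 6.09, 6.19, 5.46 and 5.82, and the dosed arrays were unusually tight at 5.05, 5.08, 5.16, 5.12 and 5.15. It was the only member of 23 genes of tumor necrosis factor receptors and NF-kB targets that passed, where 0.134% of all genes fell. Icam1, an adhesion molecule of that list, differed by -0.35 (adjusted p = 0.0629) with separate arrays, and Tnfrsf12a by -0.25 (adjusted p = 0.769). Icoslg, the ligand of another T cell co-stimulator, fell by 0.48 (adjusted p = 0.0312), but its second probe set differed by -0.12 (adjusted p = 0.851). None of the 15 measured lymphocyte markers passed, and their median was 0.01. Their vehicle means were dim, from 1.685 to 4.66 where the medians of the DMPT arrays ran from 3.53 to 3.61, so a change could have been missed. In whole liver, fewer cells of a type and less RNA per cell cannot be told apart.

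Both enzymes that act after urate oxidase in the breakdown of uric acid fell. Urah hydrolyzes 5-hydroxyisourate, and its arrays went from 10.11, 10.10, 10.06, 9.97 and 10.03 to 9.91, 9.67, 9.74, 9.68 and 9.74, a small but separate fall of 0.31 ± 0.06 (SE, adjusted p = 0.0131). Urad, the decarboxylase that completes the path to allantoin, read 9.07, 9.16, 8.84, 9.21 and 8.88 in vehicle and 8.64, 8.56, 8.50, 8.36 and 8.50 in dosed arrays, a fall of 0.52 ± 0.09 (SE, adjusted p = 0.00832). Urate oxidase itself (Uox), looked up after these values were seen, differed by -0.04 ± 0.07 (SE, adjusted p = 0.935).

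Hspa5 (BiP), the main chaperone of the endoplasmic reticulum (ER), and Creld2, an ER-resident protein induced when unfolded proteins build up, fell by 0.32 ± 0.07 and 0.45 ± 0.09 (SE, adjusted p = 0.0413 and 0.0287). Hspa5 read 10.94, 10.97, 10.92, 10.85 and 10.88 in vehicle and 10.68, 10.68, 10.59, 10.55 and 10.43 in dosed arrays. Creld2 read 7.58, 7.67, 7.56, 7.42 and 7.34 against 7.22, 7.16, 6.81, 7.02 and 7.11, and neither gene overlapped between the groups. The calls ended in 8 and 7 of the 10 fits without 1 array, the highest adjusted p values being 0.162 and 0.0982. Because these 2 genes moved together, their promoters are shown, as the 250 bases before the RefSeq start site in build GRCr8, Hspa5 at chr3:38452766-38453015 and Creld2 at chr7:121789134-121789383, both on the plus strand. Capitals mark a match to the ER stress response element, the letters CCAAT and CCACG with 9 bases of any kind between them, searched on both strands:
Hspa5: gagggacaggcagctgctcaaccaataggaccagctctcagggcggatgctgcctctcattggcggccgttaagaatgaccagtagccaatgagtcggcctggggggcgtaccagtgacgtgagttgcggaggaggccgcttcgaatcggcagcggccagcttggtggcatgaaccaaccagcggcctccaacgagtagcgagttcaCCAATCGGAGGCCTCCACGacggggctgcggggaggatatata
Creld2: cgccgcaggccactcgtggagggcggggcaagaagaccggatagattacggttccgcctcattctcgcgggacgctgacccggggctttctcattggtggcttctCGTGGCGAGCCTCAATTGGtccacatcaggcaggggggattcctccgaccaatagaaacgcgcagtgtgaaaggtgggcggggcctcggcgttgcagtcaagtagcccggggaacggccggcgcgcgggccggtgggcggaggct

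The match begins 43 bases before the start of Hspa5 and 145 bases before that of Creld2, where it lies on the opposite strand. Of 33469 promoters in the RefSeq table, 22 (0.0657%) hold this motif in the same window. Among the 30 of the 37 genes with 1 promoter in the table, these 2 were the ones with a match, which is a description of letters and not of binding. Some other ER chaperones were picked after their values were seen, and these did not pass. Pdia4 differed by -0.32 (adjusted p = 0.153) with separate arrays, Hsp90b1 by -0.27 (adjusted p = 0.128) and Sdf2l1 by 0.10 (adjusted p = 0.925), both with overlapping arrays. The 24 genes of the integrated stress and unfolded protein responses had a median of -0.02, with 2 that fell (0.134% of all genes did) and none that rose. The 3 members of that list with the greatest absolute change did not pass, Trib3 at 0.92 (adjusted p = 0.512), Nupr1 at 0.64 (adjusted p = 0.59) and Phgdh at 0.58 (adjusted p = 0.595). Without vehicle replicate 2 they were at 0.66, 0.28 and 0.30.

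For the genes that rose, the core of the antioxidant response element, TGACNNNGC, was searched in the same way. It was found in 2 of the 11 promoters of genes that rose (Spns1 and Tmem98), against 10.1% of all 33469 promoters. Among all 30 promoters 9 held it, the other 7 being of genes that fell. Gstt3, Gstm1 and Akr7a3 hold no match in this window, which says nothing of other regions. Gstp1, which did not pass at this dose, holds one that begins 61 bases before its start, within chr1:210769706-210769955 on the minus strand of GRCr8. Its promoter is shown with that match in capitals, whose first letters are also those of the AP-1 motif:
Gstp1: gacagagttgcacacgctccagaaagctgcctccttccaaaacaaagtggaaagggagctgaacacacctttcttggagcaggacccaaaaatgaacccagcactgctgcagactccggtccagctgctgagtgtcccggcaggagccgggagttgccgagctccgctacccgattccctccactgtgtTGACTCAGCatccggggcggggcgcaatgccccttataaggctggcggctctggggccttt

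Among secreted and plasma proteins, Serpind1 (heparin cofactor II), a thrombin inhibitor made by hepatocytes, fell by 0.29 ± 0.06 (SE, adjusted p = 0.026), from 11.15 ± 0.04 to 10.86 ± 0.13 (SD, n = 5). Bche (butyrylcholinesterase), also secreted by the liver, fell by 0.36 (adjusted p = 0.0485) with overlapping arrays. None of 22 acute phase proteins passed. Hamp (hepcidin), the hormone that blocks iron export, differed by -1.26 ± 0.45 (SE, adjusted p = 0.334): dosed replicates 1, 3 and 5 read 9.13, 8.83 and 9.37, while replicates 2 and 4 read 10.92 and 10.44 and the vehicle arrays 10.64 to 11.32. Atoh8, a transcription factor known to act on the hepcidin promoter, fell by 0.41 ± 0.08 (SE, adjusted p = 0.0287), and its groups were separate. The other iron list members named by the rule, Smad7 and Id1, both read-outs of BMP signaling, differed by -0.40 and -0.37 (adjusted p = 0.213 and 0.645). Orm1 and Il6r, of the acute phase list, differed by -0.27 each (adjusted p = 0.688 and 0.61).

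The other genes that fell were of mixed function. Aspg, an asparaginase, fell by 0.56 (adjusted p = 0.0267) with overlapping arrays, and the small heat shock protein Hspb8 by 0.37 (adjusted p = 0.0205), with a dimmer probe set at -0.29 (adjusted p = 0.334). Tmem82, a membrane protein gene, fell by 0.47 ± 0.08 (SE, adjusted p = 0.0065), from 5.48 ± 0.11 to 5.01 ± 0.13 (SD, n = 5). The splicing factor Srsf1 fell by 0.47 (adjusted p = 0.026), while its brighter probe set differed by -0.28 (adjusted p = 0.155). Abhd1, a hydrolase, fell by 0.49 (adjusted p = 0.0287), and Car14, a membrane-bound carbonic anhydrase, by 0.48 (adjusted p = 0.0403), with second probe sets at -0.26 (adjusted p = 0.24) and -0.19 (adjusted p = 0.466).

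For 5 of the genes that fell, the remaining probe sets did not pass and lay nearer to 0 or above it. The proteasome activator Psme4 fell by 0.39 (adjusted p = 0.0312) on a probe set of level 6.13, while its brighter ones differed by -0.01 and -0.02. The semaphorin receptor Plxnb1 fell by 0.63 (adjusted p = 0.0179), and its other probe sets differed by -0.06 each. The same held for Tmem167a, a Golgi protein (-0.47 against -0.13, -0.11 and 0.04), and Azin1, an antizyme inhibitor that raises polyamine synthesis (-0.41 against -0.16 and 0.05). Ppp1r14b, an inhibitor of protein phosphatase 1, fell by 0.31 (adjusted p = 0.0381), and its dim second probe set differed by 0.21 (adjusted p = 0.744).

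In the lists of PPARA targets, glucose handling, bile acid synthesis and the circadian clock none of the measured members passed. Of 27 PPARA targets, the hormone gene Fgf21, the muscle-type carnitine palmitoyltransferase Cpt1b and the glycerol channel Aqp7 differed most, by 0.83, 0.49 and 0.48 (adjusted p = 0.743, 0.569 and 0.5). Of 20 genes of glucose handling, the kinase Sgk1 differed by -0.84 (adjusted p = 0.332), the insulin receptor substrate Irs2 by 0.61 (adjusted p = 0.292) and Igfbp1 by 0.47 (adjusted p = 0.798). Cyp7a1, the rate-limiting enzyme of bile acid synthesis, differed by 0.41 (adjusted p = 0.794), its repressor Nr0b2 by -0.34 (adjusted p = 0.785) and the receptor Fgfr4 by -0.26 (adjusted p = 0.222). Of the transporter list, in which Abcc3 rose, the sterol exporter Abcg8 and the uptake carrier Slco1b2 differed by -0.20 and -0.18 (adjusted p = 0.897 and 0.679). Among 17 clock genes, Bhlhe40, Rora and Clock differed by -0.60, -0.30 and -0.22 (adjusted p = 0.444, 0.658 and 0.444).

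Some male-biased genes under growth hormone control varied widely within both groups, and none of 27 passed. Obp3, a urinary lipocalin, ranged from 2.72 to 9.21 within the vehicle group and from 2.63 to 6.65 within the dosed group, with a difference of -1.61 ± 0.92 (SE, adjusted p = 0.671). Mup5, a major urinary protein, differed by -1.14 ± 0.76 (SE, adjusted p = 0.739). Bcl6, a repressor that is itself controlled by growth hormone, read 3.78 and 4.22 in dosed replicates 1 and 2 and 7.98 and 8.45 in replicates 4 and 5, around vehicle arrays of 6.31 to 7.32.

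**Figure D4:**
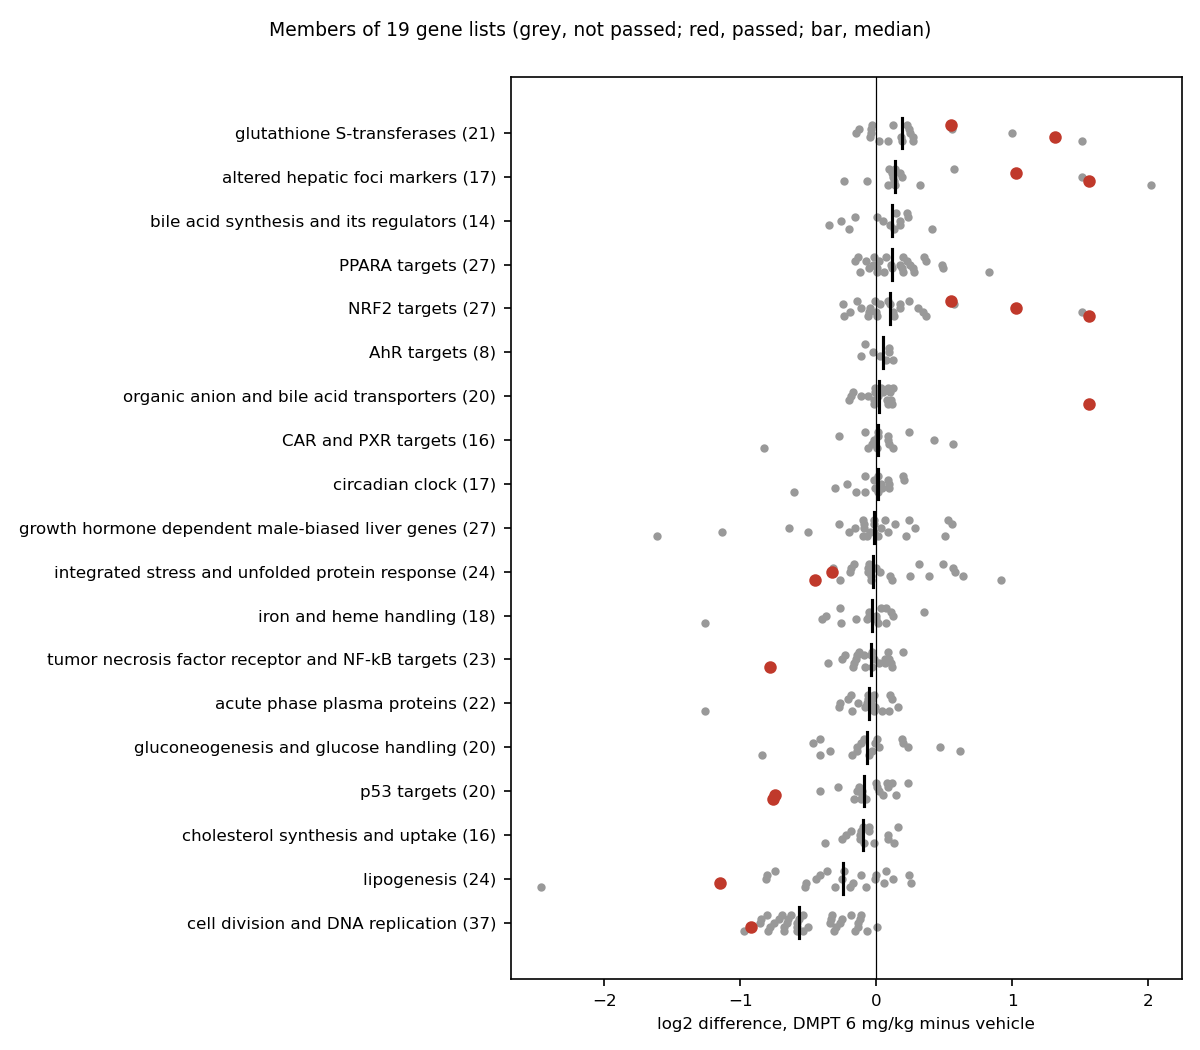
Each point is the log2 difference between 6 mg/kg of DMPT and vehicle for 1 member of a gene list, the number after a list's name counts its measured members, red points are the members that passed, and the black bar is the list median. The medians run from -0.57 for cell division to 0.19 for glutathione S-transferases, and at most 3 members of a list passed.

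Whether the 37 genes moved at other doses was looked at in comparisons that share no array with the one that chose them, namely each higher dose minus 1 mg/kg. These were added after the values at 6 mg/kg had been seen, and all share the estimate of spread of the 30 DMPT arrays. Between 1 and 20 mg/kg, 36 of the 37 genes had the same sign as at 6 mg/kg against vehicle, where 55.7% of all probe sets did. In that comparison 12 of the 37 passed in the same direction and none in the other, with 220 of 31042 probe sets passing in all (0.709%; 0.464% upward, 0.245% downward). They were Gstt3, Gstm1, Dap, Cyp2j4, Tango2 and Tmem98, which rose, and Urad, Urah, Icoslg, Phlda3, Tmem82 and Ppp1r14b, which fell. Aspg, at 0.02, had the other sign. From 1 to 60 mg/kg, 31 had the same sign (58.4% of all probe sets) and 20 passed in that direction (4.62% of all passed). From 1 to 120 mg/kg, 30 had the same sign (56.7%), 17 passed in that direction and Mybl1 in the other (10.1% of all passed).

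The dose series separated several patterns. Gstt3 had means of 8.04, 8.68, 9.36, 9.80, 10.17 and 10.51 from vehicle to 120 mg/kg, each higher than the one before, and Gstm1 and Dap followed the same order. Abcc3 was 6.45 ± 0.21 at 6 mg/kg and 6.92 at 120 mg/kg, most of its range being covered by 6 mg/kg. Akr7a3 was 9.17 ± 0.56 at 6 mg/kg and 8.92 at 20 mg/kg, which lie within each other's spread, and then 10.49 at 60 and 11.83 at 120 mg/kg. Urad fell from 9.03 in vehicle and 8.93 at 1 mg/kg to 8.51 at 6 mg/kg and stayed between 8.22 and 8.31 at the higher doses.

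Some genes that fell at 6 mg/kg took a different course at higher doses. Between 1 and 120 mg/kg, Thrsp, Azin1, Hspa5, Tmem167a, Mybl1, Cdkn1a and Hspb8 had the sign opposite to that at 6 mg/kg against vehicle. The base differs between these comparisons, so an opposite sign is not a return past vehicle. Against vehicle, Thrsp was still lower at 120 mg/kg, at -0.54 (adjusted p = 0.0465, limma), and Hspb8 and Azin1 were at -0.16 and -0.11. Tmem167a and Mybl1 were at 0.15 and 0.18, and Cdkn1a was at 0.15 on its brighter and -0.25 on its dimmer probe set. Thrsp, Cdkn1a and Mybl1 are described here. They were chosen for low values at 6 mg/kg, so a lowest mean there is a description, and 6 was not tested against 20 mg/kg. From vehicle to 120 mg/kg Thrsp had means of 9.46, 8.88, 8.31, 8.70, 8.91 and 8.91, and the difference between 120 and 1 mg/kg was 0.03 (adjusted p = 0.944). Cdkn1a on its brighter probe set had means of 6.34, 5.86, 5.57, 5.72, 5.98 and 6.49 in the same order, with 5.57 and 5.72 within each other's spread, and at 120 mg/kg it was higher than at 1 mg/kg by 0.63 (adjusted p = 0.00598). Mybl1 was 2.56 at 6 and 2.59 at 20 mg/kg and 3.66 at 120 mg/kg, higher than at 1 mg/kg by 0.66 (adjusted p = 0.031). Ccnd1 did not share this course, with 5.59 at 6 mg/kg and 5.14 at 120 mg/kg, lower than at 1 mg/kg by 0.93 on the log2 scale (adjusted p = 3.96e-05).

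**Figure D5:**
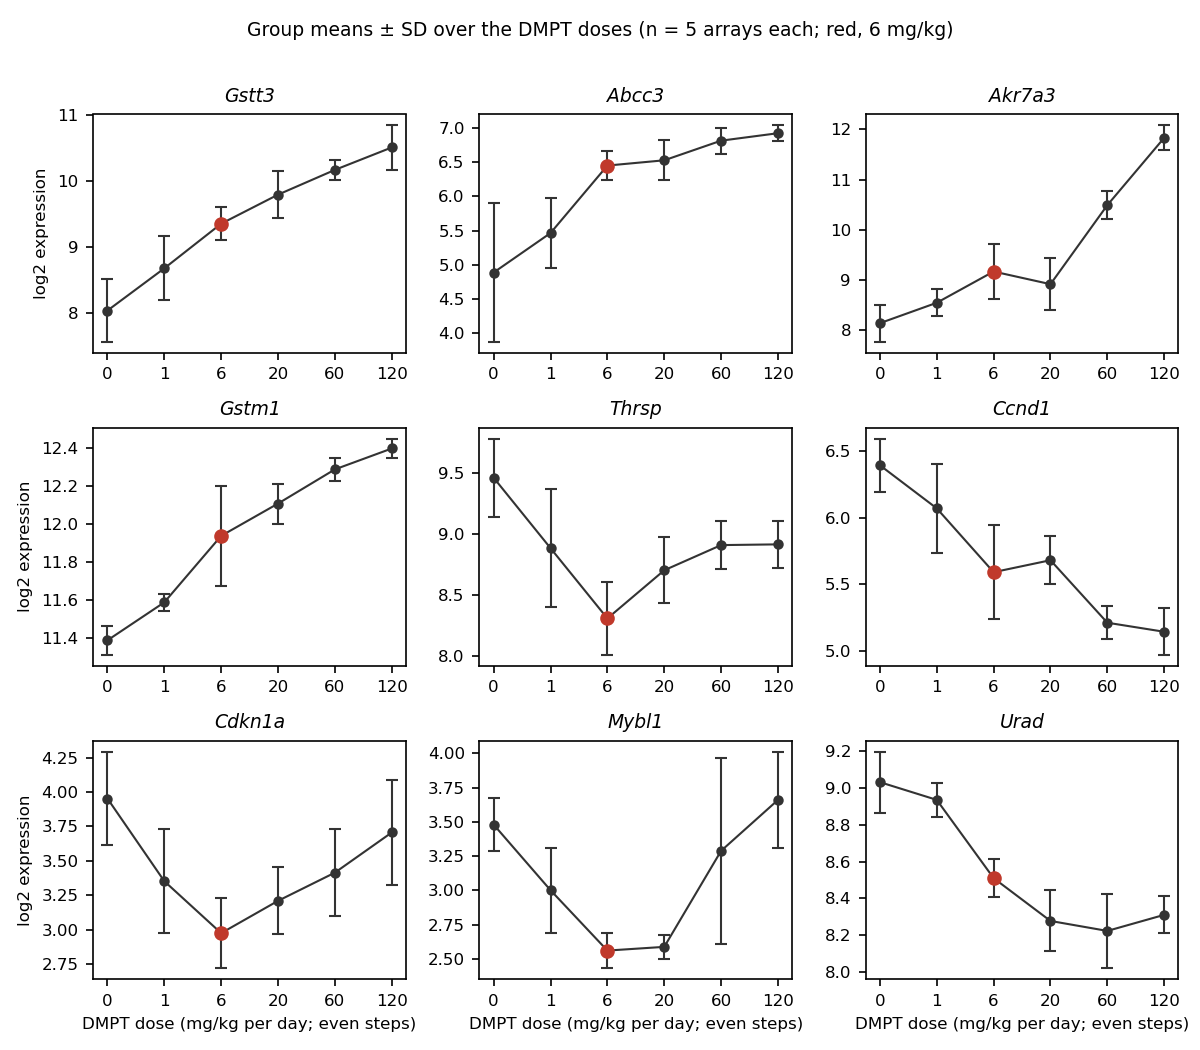
Points are group means and bars SDs of 5 arrays for 9 genes over vehicle (0) and 1, 6, 20, 60 and 120 mg/kg of DMPT, with even steps on the dose axis and 6 mg/kg in red. Gstt3 and Gstm1 are higher at each dose, while Thrsp is at 8.31 at 6 mg/kg and at 8.91 at 120 mg/kg.

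Against 1 mg/kg, no probe set passed at 6 mg/kg (0%, limma), although 2563 had an unadjusted p below 0.05 (8.26%). The 2 comparisons share the dosed arrays, and the values stand side by side here: Gstt3 was 0.68 above 1 mg/kg (adjusted p = 0.506), Abcc3 0.99 (adjusted p = 0.458), Akr7a3 0.62 (adjusted p = 0.526) and Gstm1 0.36 (adjusted p = 0.288), and Thrsp differed by -0.58 (adjusted p = 0.506) and Urad by -0.42 (adjusted p = 0.246).

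p-Toluidine has the ring and amino group of DMPT without the methyl groups on the nitrogen, and it was given at the same dose, with its own vehicle group. For this 1 pair of compounds at 6 mg/kg, no probe set passed with p-toluidine (0%, limma), with 2557 at an unadjusted p below 0.05 (8.24%). Of the 37 genes that changed with DMPT, 34 had the same sign with p-toluidine, where 55.1% of all probe sets did. The 3 others, Thrsp (0.05), Psme4 (0.07) and Plxnb1 (0.14), were near 0. Gstt3 had the smallest adjusted p of the p-toluidine comparison among genes with 1 symbol, 0.069, with a difference of 1.01 ± 0.17 (SE). Abcc3 differed by 1.14 (adjusted p = 0.257), Akr7a3 by 0.92 (adjusted p = 0.215), Adgrg2 by 0.60 (adjusted p = 0.171) and Creld2 by -0.45 (adjusted p = 0.373).

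The difference between the responses, each dose minus its own vehicle, was tested over all 60 arrays and no probe set passed (0%, limma), with 1876 at an unadjusted p below 0.05 (6.04%). The response of Gstt3 to DMPT exceeded that to p-toluidine by 0.31 with a 95% interval from -0.26 to 0.87 (adjusted p = 0.949), that of Abcc3 by 0.43 from -0.45 to 1.31 (adjusted p = 0.954) and that of Akr7a3 by 0.11 from -0.57 to 0.79 (adjusted p = 0.99). For Gstm1 the interval ran from 0.0028 to 0.50 around 0.25 (adjusted p = 0.82). Creld2 and Hspa5 had differences of -0.0017 (from -0.37 to 0.36, adjusted p = 0.999) and -0.03 (from -0.28 to 0.22, adjusted p = 0.995). Thrsp stood farthest apart among the 37 genes, at -1.20 with an interval from -1.74 to -0.65 (adjusted p = 0.247), followed by Cdkn1a on its dimmer probe set at -0.93 from -1.46 to -0.39 (adjusted p = 0.536) and Mybl1 at -0.89 from -1.56 to -0.21 (adjusted p = 0.732). Since the genes were chosen for their response to DMPT, these differences are tilted toward DMPT, and intervals that include 0 do not show that the compounds act alike. The cell division list, with a median of -0.57 for DMPT, had a median of 0.05 for p-toluidine, a description with no test of its own.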

How the data were processed

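The deposited table holds 1 value per probe set and array. Per the submitters' processing notes the authors used RMA (background correction, quantile normalization and summarization of probes), with no version or settings named there. The log2 scale of the deposited values was inferred from RMA and from their range of 0.0507 to 13.9, and every fold rests on it. Array medians ran from 3.53 to 3.61 for DMPT and from 2.73 to 2.81 for p-toluidine, so each chemical was tested on its own scale, and responses were compared in place of levels. Such values carry no depth.

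After 57 control probe sets were left out, 31042 were tested with no filter. Probe sets were named by the array's platform annotation, with symbols brought up to date by gene ID in RefSeq (GRCr8): 20826 probe sets had 1 symbol, 436 several and 9780 none. Those with several or none were tested and not named. A gene is represented by its brightest 1-symbol probe set over the 60 arrays.

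The 30 DMPT arrays were fitted with 6 group means in limma 3.58.1 (R 4.3.3; lmFit and eBayes), p-toluidine likewise, and the difference of responses over 60 arrays with 12 group means. P-values were adjusted by Benjamini-Hochberg over all probe sets, and "rose" and "fell" mean an adjusted p of at most 0.05. Errors are standard errors of the fit (SE) or standard deviations (SD). The series' design text names the ORIOGEN software, which was not used here. The procedure was tested on simulated data. Alternatives were a second quantile normalization, median centring, leaving out probe sets dimmer than the median, eBayes with trend and robust settings, only the groups compared, the replicate number as a block, array weights, leaving out each array, the mean of a gene's probe sets and, added later, leaving out 5 arrays with a narrow spread.

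Named genes are all those called, except provisional symbols, and up to 3 members of each of 19 pathway lists with the largest absolute change; genes called with a difference between the chemicals would also have been named, and there were none. Genes outside this rule (Alb, Uox, Hsp90b1, Pdia4, Sdf2l1, Gclm, Gclc, Fasn, Elovl6, Acly, Cdk1, Mki67, Top2a, Mdm2 and Fas) were chosen after their values were seen. The comparison and the lists were chosen with earlier results of these data known. Promoters came from the RefSeq table of build GRCr8, whose entries cover the 250 bases before each start used here.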

Additional observations from a re-analysis of the deposited data

Results flagged for a closer look

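Among 164 sets of 5 array values tested for a single value standing apart (Dixon's ratio), 6 had one, and chance gives about 1 in 20. Vehicle replicate 4 was high for Psme4 at 6.353, with the others from 6.047 to 6.1. Vehicle replicate 3 was high for Adgrg2 at 4.925, with the others from 4.166 to 4.336. Dosed replicate 1 was low for Ugt2b1 at 9.903 (others 10.21 to 10.31) and high for Sgk1 at 8.148 (others 6.932 to 7.265). Dosed replicate 2 was low for Cyp7a1 at 8.051 (others 8.62 to 8.791). Dosed replicate 5 had the low beta-actin gauge of 1.178 (others 1.407 to 1.493). Without this array there were 23 calls, and without vehicle replicate 4, with a gauge of 1.472, there were 18. A link between the gauge and the calls was not tested.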

How the results depend on the processing

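Calls for 6 mg/kg of DMPT against vehicle numbered 52. They became 91 with a second quantile normalization, 33 with median centring (8 higher, 25 lower), 101 without the probe sets dimmer than the median, 83 with trend and robust settings, 15 with only the groups compared, and 18 to 73 with 1 array left out. Array weights gave 69. With the replicate number as a block there were 46 calls, 42 of them among the 52. Deviations of same-numbered arrays correlated at 0.32 for replicate 1, at 0.196 for replicate 5 and at -0.06 to 0.007 for the others. Only dosed replicate 1 correlated best with the vehicle array of its own number. The numbers were not taken as pairs. The 37 genes kept their sign in all settings, which reuse most of the arrays that chose them. Thrsp, Gstt3 and Tnfrsf9 were called in each, and 29 were called with the mean of a gene's probe sets. Against 1 mg/kg, 0 calls became 1 with array weights and 0 to 3 with 1 array left out. For p-toluidine at 6 mg/kg, 0 became 1 with a second quantile normalization, 2 with only the groups compared, 1 with the block, 4 with array weights and 0 to 5 with 1 array left out. For the difference of responses, 0 became 1 with only the groups compared and 0 to 1 with 1 array left out. The cause of these moves was not tested, except that leaving out dim probe sets or arrays changes how many enter the adjustment or the means. The number of arrays, 5 a group, and an unknown signal over background for dim genes such as Mybl1 limit what can be called.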
